A study of Mus musculus with 16 samples.

Results

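The genes described here are 10 transcription factors of mesenchyme and of limb position, Prrx1, Prrx2, Twist1, Twist2, Tbx15, Pitx1, Tbx4, Tbx5, En1 and Meox2. They were chosen by gene symbol, whatever their values, and each has 1 row among the 43984 genes of the histone table and 1 row among the 55471 genes of the CpG methylation table. The samples were mouse induced pluripotent stem cell (iPSC) lines, in which somatic cells had been returned to a state that can form all embryonic germ layers. The comparison asks whether iPSCs made from kidney proximal tubule cells (PTC) and iPSCs made from tail tip fibroblasts (TTF), a mesenchymal cell, keep different chromatin marks from their cells of origin.

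Both origins came from adult littermates of 1 quadruple transgenic mouse line, heterozygous for SLC34a1-GCE, tdTomato, rtTAROSA (neo-in) and OKMS-250, in which doxycycline switches on Oct4, Klf4, c-Myc and Sox2. The methods describe tamoxifen in the food of the mice, from which kidneys and tail tips were then collected. In PTC, tamoxifen activated Cre from the Slc34a1 promoter, and tdTomato+/GFP+ cells were sorted. TTF do not express Slc34a1 and were given Cre on a non-integrating episomal plasmid, so origin and route of Cre delivery cannot be told apart. Every line is a picked clone that grew without doxycycline, and the methods describe growth of the lines on mitomycin C-treated mouse embryonic fibroblast feeders before differentiation. The lines PTC11 and PTC12 were compared with TTF1 and TTF4, with 1 library a line for H3K4me3, H3K36me3 and CpG methylation. A line is thus the replicate (n = 2 an origin). The p-values rest on the spread between lines, in which clone and library cannot be told apart.

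Prrx1 and Prrx2 are paired-related homeobox factors of limb bud and craniofacial mesenchyme. Twist1 and Twist2 are basic helix-loop-helix factors that hold mesenchymal and dermal cells in an undifferentiated state. Pitx1 and Tbx4 act in the hindlimb field and Tbx5 in the forelimb field, Tbx15 shapes skin and skeleton, En1 marks the ventral limb ectoderm and certain dermal fibroblasts, and Meox2 patterns somites and limb muscle. Such developmental regulators often have promoters rich in CpG, the dinucleotide whose cytosine can be methylated. H3K4me3 marks gene starts that are active or poised, H3K36me3 marks bodies of transcribed genes, and CpG methylation near a start is usually found at silent genes.

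The sequences just before the starts of the 5 genes whose table start is that of their principal transcript are shown because their CpG content differs so widely. They were taken from RefSeq promoters on GRCm38.p6 (the build of mm10) and cut to the bases before both the RefSeq start and the start in the tables. Of the 10 genes, 7 had a RefSeq entry, while Tbx15, Pitx1 and Tbx5 had none and the entries of Prrx2 and Tbx4 lie away from the starts the tables use. Capitals mark each CG, the site of CpG methylation.
Twist1, chr12:33957421-33957670, plus strand: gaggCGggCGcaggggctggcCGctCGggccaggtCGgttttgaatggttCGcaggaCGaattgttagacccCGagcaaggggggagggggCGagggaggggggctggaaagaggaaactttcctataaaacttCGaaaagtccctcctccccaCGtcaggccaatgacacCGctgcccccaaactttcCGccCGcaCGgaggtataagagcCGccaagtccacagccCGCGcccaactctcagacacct
Twist2, chr1:91801211-91801460, plus strand: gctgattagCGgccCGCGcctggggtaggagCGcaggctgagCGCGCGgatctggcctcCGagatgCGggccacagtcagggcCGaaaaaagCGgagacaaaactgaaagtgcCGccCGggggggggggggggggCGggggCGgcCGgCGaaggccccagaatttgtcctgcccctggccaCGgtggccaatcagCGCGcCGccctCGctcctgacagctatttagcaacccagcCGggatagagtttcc
En1, chr1:120602237-120602417, plus strand: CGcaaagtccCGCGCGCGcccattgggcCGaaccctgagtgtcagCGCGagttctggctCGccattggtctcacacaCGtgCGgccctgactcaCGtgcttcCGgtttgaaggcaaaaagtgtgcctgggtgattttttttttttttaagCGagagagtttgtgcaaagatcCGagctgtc
Meox2, chr12:37108290-37108539, plus strand: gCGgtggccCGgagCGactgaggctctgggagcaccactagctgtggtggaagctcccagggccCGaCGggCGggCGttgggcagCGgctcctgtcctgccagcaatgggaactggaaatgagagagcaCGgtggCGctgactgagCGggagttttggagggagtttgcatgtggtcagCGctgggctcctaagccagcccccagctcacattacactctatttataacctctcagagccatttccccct
Prrx1, chr1:163313711-163313900, minus strand: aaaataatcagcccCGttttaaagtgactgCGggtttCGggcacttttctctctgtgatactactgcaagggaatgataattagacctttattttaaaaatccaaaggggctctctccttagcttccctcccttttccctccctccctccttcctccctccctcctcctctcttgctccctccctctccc
The Twist2 stretch holds 23 CGs in 250 bases, the Twist1 stretch 18 in 250, the En1 stretch 15 in 181 and the Meox2 stretch 12 in 250. The Prrx1 stretch is the poorest, with 3 CGs in 190 bases. Over the 32851 promoters of the RefSeq table the median is 6 CGs in the 250 bases before the start. The full 250 bases before the RefSeq start, which are ranked here, hold 19 CGs at En1 and 4 at Prrx1. Twist2 lay at the 87.4th percentile of that distribution, En1 at the 81.2nd, Twist1 at the 79.3rd, Meox2 at the 67.5th and Prrx1 at the 41.1st. At least 1 CG was present in 92.1% of these promoters.

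The coordinates are those of the methylation table on mm10. Prrx1 lies at chr1:163245119-163313710 on the minus strand, Prrx2 at chr2:30834972-30881251 on the plus strand, Twist1 at chr12:33957671-33959829 and Twist2 at chr1:91801461-91848028, both on the plus strand. Tbx15 lies at chr3:99240381-99354259, Tbx4 at chr11:85886422-85916097 and Tbx5 at chr5:119832668-119885219, all on the plus strand, and Pitx1 at chr13:55825051-55836192 on the minus strand. En1 lies at chr1:120602418-120607992 and Meox2 at chr12:37108540-37179534, both on the plus strand. The start that a table uses is the outermost base of the gene, which need not be the start of its principal coding transcript.

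The whole tables differ between lines in ways that touch every gene. H3K4me3 is the RPKM (read density scaled to peak length and library size) of the peaks from 2 kb before to 3 kb after the start, after subtraction of input, and a gene without a peak has no value. H3K4me3 had a value at 15114 to 19990 genes a line and a median of 3.65 to 5.01, H3K36me3 had a median of 1.18 in TTF1, 1.60 in PTC11, 3.88 in PTC12 and 4.01 in TTF4, and the median methylated fraction was 0.374 in TTF1, 0.385 in PTC11, 0.539 in PTC12 and 0.77 in TTF4. H3K27me3, a mark of repressed genes, had a value at only 11 to 144 genes a library and at none of the 10 genes, and both of its PTC libraries carry the name of PTC11. The tables used here give neither read counts nor coverage at a gene, so that the depth behind each value is unknown. H3K4me3 was listed at 11 of 12 pluripotency genes in 3 lines and at 9 of 12 in TTF4, and at Pou5f1 between 4.24 and 5.56 RPKM. Esrrb had no value in any line, and Dppa5a and Zfp42 had none in TTF4. Of 12 proximal tubule genes PTC12 listed 5 and TTF1 4, while PTC11 and TTF4 listed 2 each. Shares over all genes ran from 34.4% to 45.4% a line. Listed in every line were 9 of the pluripotency genes and 1 of the proximal tubule genes.

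H3K4me3 was listed at all 10 genes in PTC12, at 9 in TTF1 and at 4 each in PTC11 and TTF4. PTC12 and TTF1 also listed more genes in all, 45.4% and 44.2% of the table, where PTC11 and TTF4 listed 34.4% and 34.9%.

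Twist1, a regulator of mesenchymal identity, had 2.75 RPKM of H3K4me3 in PTC11 and 4.72 in PTC12, against 4.95 in TTF1 and 3.25 in TTF4. Its paralogue Twist2 had 3.22 in PTC11, 4.40 in PTC12 and 4.96 in TTF1, with no value in TTF4. At both genes PTC12 and TTF1 were the high lines, and the origins overlapped at Twist1. Prrx1 had 3.46 in PTC12, 4.31 in TTF1 and 3.07 in TTF4, with no value in PTC11. Prrx2 had a value only in PTC12, at 1.75, which was the lowest value of any of the 10 genes. In the histone table Asb6 near Prrx2 and an unnamed transcript 3142 bp from Twist1 had no H3K4me3 value.

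Among the limb position genes, Tbx15 had 2.80 RPKM in PTC11 and 3.13 in PTC12, against 3.88 in TTF1 and 4.01 in TTF4. Both TTF lines exceeded both PTC lines, and the pair within each origin stood close together. Tbx4 had 3.72 in PTC11, 3.97 in PTC12 and 4.25 in TTF1, and no value in TTF4. Tbx5, its forelimb counterpart, had 4.09 in PTC12 and 2.98 in TTF1, and Pitx1, which lies upstream of Tbx4 in the hindlimb programme, had 2.72 in PTC12 and 3.37 in TTF1. Tbx5 and Pitx1 had no value in the other lines, so that no origin had both of its lines at either gene.

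En1 had 3.76 RPKM in PTC12, 5.31 in TTF1 and 2.61 in TTF4. Its TTF1 value was the highest H3K4me3 value of any of the 10 genes, and its TTF4 value stood on the other side of PTC12. Meox2 had 3.30 in PTC12 and 3.19 in TTF1, which lay within 0.2 RPKM of each other.

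**Figure D1:**
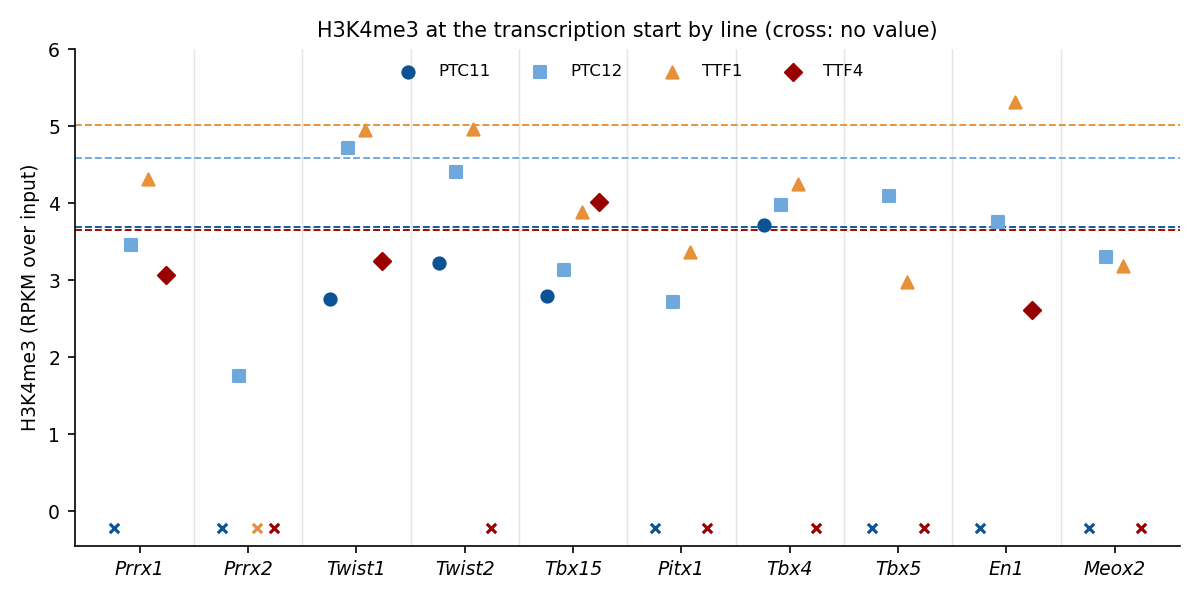
H3K4me3 at the start of each gene (y axis, RPKM over input) in the 4 lines, with crosses where a line has no value and dashed lines for the median of all genes with a value in that line. Crosses fall on PTC11 and TTF4, and once on TTF1 at Prrx2, and 1 gene a line lies above its line's median.

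In each line only 1 of the genes with a value stood above the median of that line, namely Tbx4 in PTC11 and Twist1 in PTC12, against En1 in TTF1 and Tbx15 in TTF4. The median of the 10 genes lay at the 16.9th percentile of PTC11, the 31.3rd of PTC12, the 35.8th of TTF1 and the 25.5th of TTF4, each over the members that had a value there. Of the 9 genes with a value in both PTC12 and TTF1, 2 had one in all 4 lines, where the share over all genes was 76.2%. An empty entry records that no peak was called and is not a 0.

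With values in all 4 lines, only Twist1 and Tbx15 could be compared by origin. The TTF minus PTC difference on log2(RPKM + 1) was 0.12 at Twist1 (95% CI -0.59 to 0.83) and 0.32 at Tbx15 (95% CI -0.31 to 0.95), and limma gave an adjusted p of 1.00 for each. Neither gene was called, against 0.481% of all 13709 genes tested. Both TTF lines exceeded both PTC lines at Tbx15 alone, an order found at 5.04% of all genes, and the reverse order was found at 3.17% of all genes and at neither of these. PTC12 and TTF1 both lay above PTC11 and TTF4 at Twist1, an order that 81.4% of all genes shared. With 2 lines an origin, an exact two-sided permutation test over lines cannot give a p below 0.33.

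Fibroblasts, as origin or as feeder, express several of these factors, so fibroblast markers were set beside them. H3K4me3 was listed at 2 of 15 fibroblast and feeder genes in PTC11 and 8 in PTC12, against 9 in TTF1 and 6 in TTF4, and their summed level was 6.55, 28.2, 32.3 and 22.2 RPKM in that order. The summed level of the 10 genes was 12.5, 35.3, 37.2 and 12.9 RPKM. Col1a1 and Col1a2, which encode type I collagen, had no value in PTC11 and 2.65 to 3.01 and 3.78 to 4.11 in the other lines, while Col3a1, Dcn, Lum, Postn, Fap and S100a4 had no value in any line. An empty entry adds nothing to such a sum, so the sums follow the number of genes listed as well as their levels. PTC11 listed the fewest fibroblast genes, but among the 10 genes it was level with TTF4, at 4 each. TTF4 listed 6 of the 15 fibroblast genes and 4 of the 10 genes. Shares over all genes were 34.4%, 45.4%, 44.2% and 34.9% in the same order of lines. Whether fibroblast chromatin has a part in these values was not tested.

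H3K36me3, taken over the gene body, was listed at all 10 genes in all 4 lines, where 38.7% of all genes had a value in every line. Genes most like them were also mostly listed in every line. These were 14 of 16 paralogues, 41 of 42 limb bud genes and 20 of 23 other mesenchymal factors. The 10 genes followed the scale of each line, with higher values in PTC12 and TTF4 and lower ones in PTC11 and TTF1. The paper describes the reverse for read coverage at renal genes. It names Jag1 and Gata3, with more H3K36me3 in PTC11 and TTF1 than in PTC12 and TTF4. The values used here are averages of called peaks. PTC11, despite a median of only 1.60, was the line with most entries, 29905. The values therefore do not show which line carries more of the mark. The cause of this disagreement was not tested.

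Prrx1 had 2.03 RPKM of H3K36me3 in PTC11 and 4.14 in PTC12, against 1.90 in TTF1 and 3.06 in TTF4. Prrx2 had 1.55 in PTC11 and 4.2 in PTC12, against 0.973 in TTF1 and 5.49 in TTF4. Prrx2 spanned 5.65-fold between its lowest and highest line and Prrx1 2.18-fold. The percentile of Prrx1 among all genes ran from 93.1 in TTF1 to 23.8 in TTF4, whereas that of Prrx2 ran the other way, from 31.3 in TTF1 to 82.3 in TTF4.

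Twist1 had 2.00 RPKM in PTC11 and 3.01 in PTC12, against 1.00 in TTF1 and 4.55 in TTF4. Twist2 had 1.32 in PTC11 and 3.03 in PTC12, against 1.17 in TTF1 and 3.72 in TTF4. Both genes were highest in TTF4 and lowest in TTF1, so that the origins overlapped. Twist2 lay below the median of its line in every line.

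Pitx1 had 2.61 RPKM in PTC11 and 5.56 in PTC12, against 1.34 in TTF1 and 4.14 in TTF4. Tbx4 had 1.72, 5.16, 1.00 and 4.56 in the same order of lines. These hindlimb genes were both highest in PTC12 and lowest in TTF1, and Pitx1 lay above the median of its line in all 4 lines, at percentiles from 53.8 to 95.4. Tbx5 had 1.76 in PTC11 and 3.54 in PTC12, against 1.32 in TTF1 and 4.87 in TTF4. Tbx15 had 1.65, 3.91, 1.28 and 3.70 in that order. Tbx5 peaked in TTF4 and Tbx15 in PTC12, with origins overlapping at both.

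En1 had 1.63 RPKM in PTC11 and 4.53 in PTC12, against 1.06 in TTF1 and 4.24 in TTF4. Meox2 had 1.15, 3.15, 0.748 and 3.67 in that order. Meox2 was the lowest of the 10 genes in PTC11 and in TTF1 and lay below the line median in all 4 lines, at percentiles from 17.8 to 39.8.

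**Figure D2:**
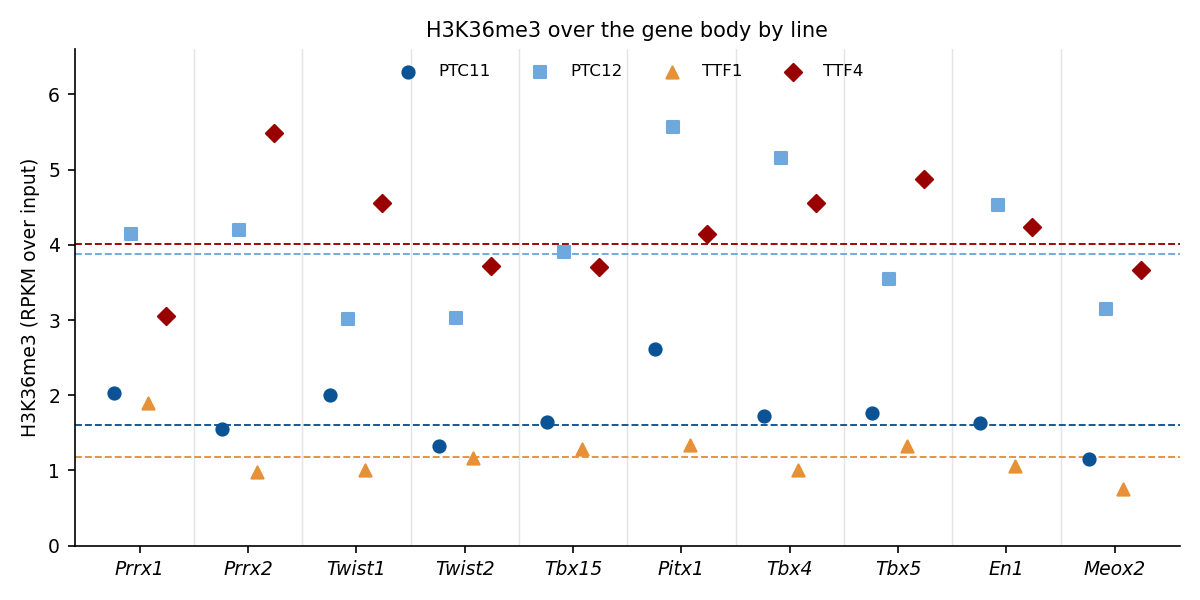
H3K36me3 over the body of each gene (y axis, RPKM over input) in the 4 lines, with dashed lines for the median of all genes with a value in that line. PTC12 and TTF4 lie above PTC11 and TTF1 at all 10 genes, and so do their medians.

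PTC12 and TTF4 both lay above PTC11 and TTF1 at all 10 genes, and the same order held at 93.6% of all genes, so that it is no particular of these factors. TTF1 was the lowest line at all 10 genes, and the highest line was PTC12 at 5 and TTF4 at 5. Ordered by the mean of 4 lines, the genes ran from Meox2 at 2.18 to Pitx1 at 3.41 RPKM. Neighbours in that order differed by at most 0.326 RPKM, less than the smallest SD over the lines, 1.04 at Prrx1. That SD includes the scale of each line, which the genes share, so it cannot show whether neighbours differ within lines.

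The TTF minus PTC differences on log2(RPKM + 1) ran from -0.49 at Pitx1 (95% CI -2.78 to 1.81) to 0.07 at Twist2 (95% CI -1.70 to 1.84). limma gave an adjusted p of 1.00 for each of the 10 genes and called none, against 0.112% of all 17039 genes tested. The difference was negative at 8 genes and positive at 2, where quantile normalization between lines turned the sign at Prrx2, Tbx15 and Meox2, and the median was -0.101 against -0.136 over all genes. No gene of the 10 had both TTF lines above or both below both PTC lines, orders found at 0.452% and 3.05% of all genes. The intervals are wide enough to hold differences of 1 log2 unit in either direction, which were not detectable in these lines.

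CpG methylation was measured by nanopore sequencing as the fraction of methylated CpGs in sliding windows within 1000 bp of the start, from 0 (none) to 1 (all). Over the 10 genes and 4 lines it ran from 8.71e-04 to 0.915. Twist1 was almost free of methylation in every line, while Meox2 and Tbx4 in TTF4 were almost fully methylated.

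Twist1 had a fraction of 0.0383 in PTC11 and 0.00333 in PTC12, against 0.0244 in TTF1 and 8.71e-04 in TTF4. Twist2 had 0.0942 in PTC11 and 0.283 in PTC12, against 0.0899 in TTF1 and 0.445 in TTF4. The paralogues differed most in TTF4, the line with the highest methylation over all genes, where Twist2 was at its highest and Twist1 at its lowest. The gene model Gm29100 starts 1476 bp from Twist2 on the opposite strand and had 0.295, 0.489, 0.219 and 0.793 in the same order of lines, higher than Twist2 in each.

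Prrx1 had a fraction of 0.139 in PTC11 and 0.143 in PTC12, against 0.186 in TTF1 and 0.0049 in TTF4. Prrx2 had 0.359 in PTC11 and 0.614 in PTC12, against 0.323 in TTF1 and 0.737 in TTF4. Prrx1 was lowest in TTF4, at the 0.948th percentile of all genes there, and Prrx2 was highest in it. The table places Prrx2 10087 bp upstream of its principal start, in a window with 31 CpGs where the principal start has 106 within 1000 bp, so its value does not describe that promoter. Asb6, which starts 4639 bp from the Prrx2 table start, had 0.405, 0.5, 0.426 and 0.674, and Gm37644, which starts 4643 bp from Prrx1, had 0.488, 0.443, 0.417 and 0.596 in the order of lines above. Gm37644 was highest in TTF4, where Prrx1 was lowest.

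Tbx15 had a fraction of 0.0833 in PTC11 and 0.0197 in PTC12, against 0.143 in TTF1 and 0.501 in TTF4. Both TTF lines exceeded both PTC lines, mostly through TTF4. The table start of Tbx15 lies 13379 bp upstream of the principal start in both tables, so that its H3K4me3 and methylation values belong to that outer start.

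Pitx1 had a fraction of 0.237 in PTC11 and 0.253 in PTC12, against 0.297 in TTF1 and 0.346 in TTF4. Its range was the smallest in proportion, 1.46-fold from lowest to highest, and both TTF lines exceeded both PTC lines in the fractions as deposited. Gm28760 starts 97 bp away and had 0.256, 0.24, 0.296 and 0.304 in the same order, which is nearly the same window. Tbx4 had 0.240 in PTC11 and 0.570 in PTC12, against 0.289 in TTF1 and 0.858 in TTF4. Tbx5 had 0.355, 0.649, 0.277 and 0.719 in that order. Both T-box genes were high in PTC12 and TTF4 and low in PTC11 and TTF1, as the whole table was, and their origins overlapped. Gm43050, which starts 646 bp from Tbx5 on the opposite strand, had 0.299, 0.498, 0.23 and 0.74 in that order and followed it.

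En1 had a fraction of 0.141 in PTC11 and 0.165 in PTC12, against 0.0603 in TTF1 and 0.213 in TTF4. Meox2 had 0.322 in PTC11 and 0.333 in PTC12, against 0.264 in TTF1 and 0.915 in TTF4. The first 3 lines of Meox2 lay within 0.07 of each other and TTF4 stood far above them, while En1 kept a fraction under 0.22 in every line. Gm29007, which starts 1751 bp from Meox2, had 1, 0.456, 0.114 and 0.761 in the same order of lines and did not follow Meox2.

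**Figure D3:**
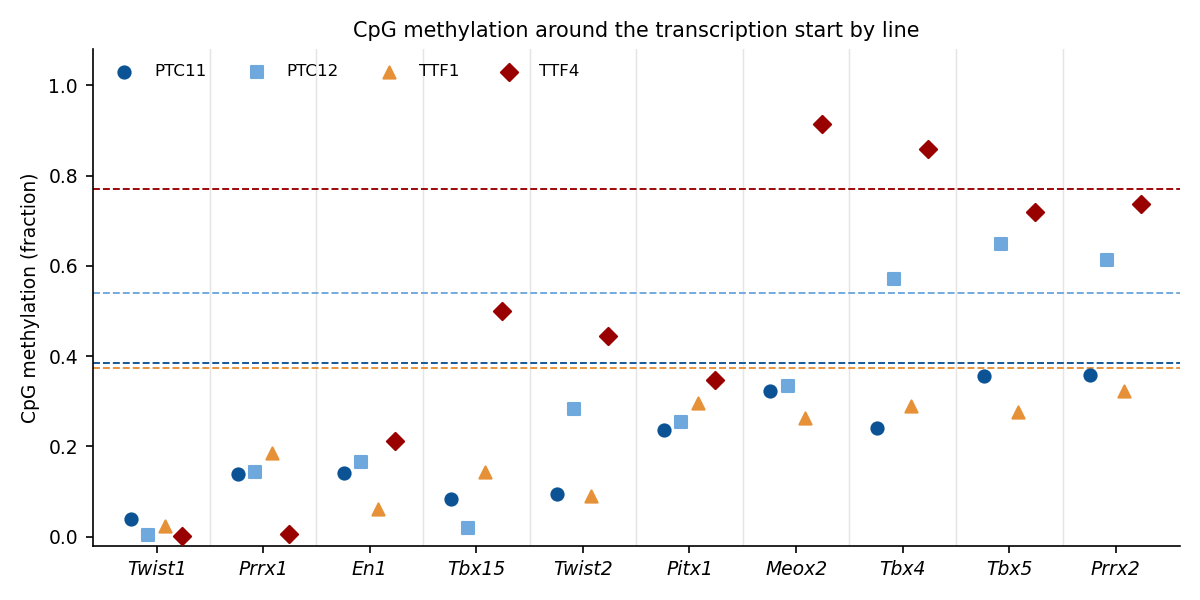
CpG methylation around the start of each gene (y axis, fraction of methylated CpGs) in the 4 lines, with genes ordered by their mean and dashed lines for the median of all genes in each line. TTF4 is the highest line at 8 genes and the lowest at Twist1 and Prrx1.

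TTF4 was the highest line at 8 of the 10 genes, as it was at 75.4% of all genes. It was the lowest line at Twist1 and Prrx1, an order found at 2.99% of all genes. TTF4 minus the mean of the other lines was 0.609 at Meox2, which lay at the 97.1st percentile of all genes, 0.491 at Tbx4 and 0.419 at Tbx15. It was -0.151 at Prrx1, at the 1.19th percentile, and -0.0212 at Twist1, where no line exceeded 0.0383, and the median over all genes was 0.231. The 10 genes thus span both ends of that distribution in 1 clone, and whether a second clone would do the same cannot be told from these files.

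Relative to each line's own median, none of the 10 genes lay above it in PTC11 or TTF1. Prrx2, Tbx4 and Tbx5 lay above it in PTC12, and Meox2 and Tbx4 in TTF4. A fraction under 0.2 was found at 5 of the 10 genes in PTC11 and 4 in PTC12, against 5 in TTF1 and 2 in TTF4, where the shares over all genes were 30.7%, 24.4%, 32.1% and 13.6% in that order. Twist1 and Prrx1 stayed under 0.2 in all 4 lines, 2 of 10 where the share over all genes was 12.4%.

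Ordered by the mean of 4 lines (± SD), the fraction was 0.0167 ± 0.0179 at Twist1, 0.118 ± 0.0784 at Prrx1, 0.145 ± 0.0638 at En1, 0.187 ± 0.216 at Tbx15 and 0.228 ± 0.17 at Twist2. It went on with 0.283 ± 0.0491 at Pitx1, 0.458 ± 0.306 at Meox2, 0.489 ± 0.285 at Tbx4, 0.500 ± 0.217 at Tbx5 and 0.508 ± 0.2 at Prrx2. The step from Twist1 to Prrx1, 0.101, was larger than the SD of either gene, and Twist1 was the lower in all 4 lines. The step from Pitx1 to Meox2, 0.175, exceeded the SD of Pitx1 but not that of Meox2, and the step from Twist2 to Pitx1, 0.0555, likewise exceeded only that of Pitx1. All other neighbours differed by less than the SD of either. Each SD also includes the level of each line, which the genes share, so it cannot show whether neighbours differ within lines.

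By origin, limma was run on the fraction minus the mean of its line. The largest TTF minus PTC differences were 0.184 at Tbx15 (95% CI -0.0807 to 0.448) and 0.176 at Meox2 (95% CI -0.136 to 0.487), and the lowest were -0.133 at Prrx1 (95% CI -0.403 to 0.138) and -0.104 at En1 (95% CI -0.363 to 0.155). limma gave an adjusted p of 1.00 at all 10 genes and called none, and none had an unadjusted p under 0.05. Over all 50657 genes, limma called 0.00395%. The difference was positive at 3 genes and negative at 7, of which Prrx2, Twist2 and Pitx1 turned positive without centring, and the median was -0.0268 where all genes had -0.01.

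On the centred fraction both TTF lines exceeded both PTC lines at Tbx15 alone and lay below them at En1 alone, orders found at 15% and 12.8% of all genes. In the fractions as deposited En1 overlapped and Pitx1 joined Tbx15, so that both TTF lines were above at 2 genes and below at none, where the shares over all genes were 20.5% and 3.36%. Each non-overlapping gene taken alone has an exact two-sided permutation p of 0.33.

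The windows differed in where they lie and in how many CpGs they hold. Of 20085 protein-coding genes with a principal transcript (one with a CCDS coding sequence and the highest APPRIS rank in GENCODE vM21), 90.2% had their methylation table start within 1000 bp of it, but only 5 of the 10 genes did, Twist1, Twist2, En1, Prrx1 and Meox2, each at 0 bp. Apart from Prrx2 and Tbx15, given above, the table start lay 3641 bp upstream of the principal start at Tbx4, 4767 bp at Pitx1 and 1995 bp at Tbx5. In the histone table Tbx5 begins at the principal start, so that its H3K4me3 and its methylation belong to different places, and 6 of the 10 genes were within 1000 bp there against 88.1% of all.

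Within 1000 bp of the table start Twist1 had 184 CpGs, Twist2 145, En1 120, Pitx1 104, Tbx15 73, Meox2 71, Tbx5 63, Tbx4 62, Prrx1 53 and Prrx2 31, where the median over all genes was 25. The 4 genes with at least 100 CpGs had mean fractions from 0.0167 to 0.283. The 6 others ran from 0.118 to 0.508. Over all genes the median fraction was 0.0451 in PTC11 and 0.0627 in PTC12, against 0.0446 in TTF1 and 0.139 in TTF4 with at least 100 CpGs, and 0.431, 0.591, 0.428 and 0.804 in that order with fewer. Twist2, Pitx1 and En1 lay above the median of the CpG-rich genes in every line, Twist1 lay below it in every line, and Prrx1 lay far below the median of the CpG-poor genes in every line. At the principal starts, which the table did not measure for these genes, Pitx1 has 144 CpGs, Tbx15 94, Tbx4 79 and Tbx5 33.

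**Figure D4:**
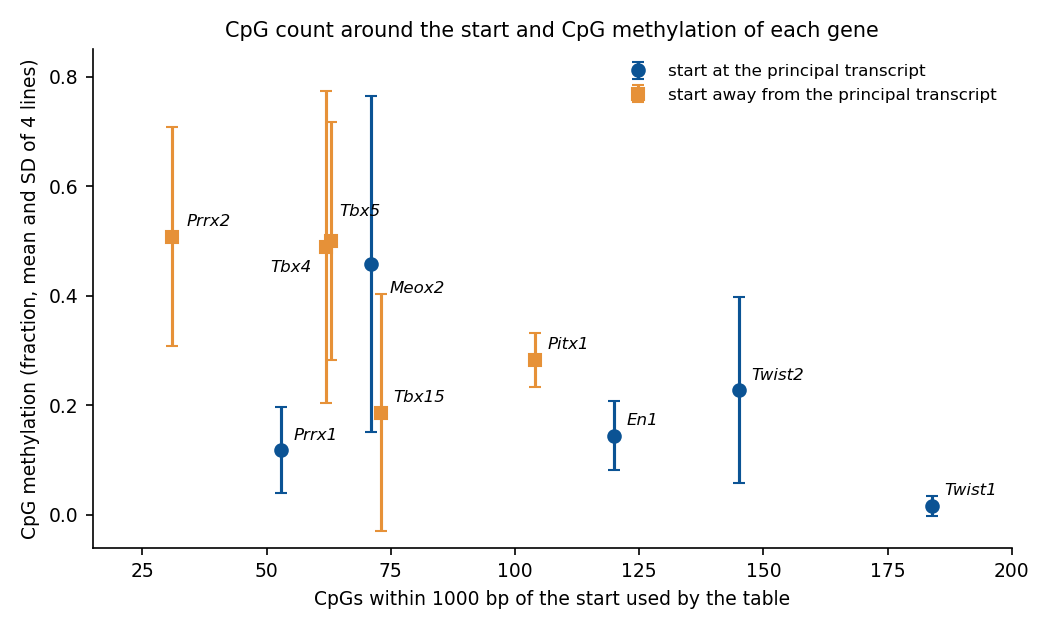
CpG methylation of each gene (y axis, mean fraction of 4 lines, bars for the SD over lines) against the number of CpGs within 1000 bp of the start that the methylation table uses (x axis), with squares for genes whose table start lies away from the principal transcript. Twist1, with 184 CpGs, has the lowest mean at 0.0167, and Prrx2, with 31, the highest at 0.508, while Prrx1 is low with 53.

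Relatives and partners of the 10 genes give them a setting. Of 16 paralogues, 42 limb bud signalling and patterning genes and 23 other mesenchymal transcription factors, limma tested those with a value in every line. These were 14, 41 and 20 in H3K36me3 and all of them in methylation, and the H3K4me3 counts follow. limma called none of them in any of the 3 assays. Over all genes it called 0.481% in H3K4me3, 0.112% in H3K36me3 and 0.00395% in methylation. In H3K4me3, 10 of 16 paralogues, 34 of 42 limb bud genes and 18 of 23 mesenchymal factors had a value in all 4 lines, against 2 of the 10 genes. Over all genes it was 13709 of 43984. Tbx2, which lies beside Tbx4, had 2.79 RPKM in PTC11 and 3.42 in PTC12, against 4.53 in TTF1 and 3.40 in TTF4, and Tbx3, which lies beside Tbx5, had 3.57, 6.12, 5.84 and 3.42. Both neighbours thus had H3K4me3 in TTF4, where Tbx4 and Tbx5 had none listed. The start used for Tbx4 lies 3641 bp upstream of its principal start, further than the 3 kb after a start over which H3K4me3 was taken. The same holds for Prrx2, Tbx15 and Pitx1, at 10087, 13379 and 4767 bp. The H3K4me3 values of these genes, and their empty entries, therefore do not describe the principal starts.

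The same neighbours had little methylation. Tbx2 had a fraction of 0.0227 in PTC11 and 0.00463 in PTC12, against 0.0278 in TTF1 and 0.0514 in TTF4, and Tbx3 had 0.0174, 0.0301, 0.0297 and 0.0796, each far below Tbx4 and Tbx5 in the same line. The methylation starts of Tbx4 and Tbx5 lie 3641 and 1995 bp upstream of their principal starts, so their values do not describe those promoters. In H3K36me3 Tbx2 had 2.16, 7.09, 1.71 and 5.18 RPKM and Tbx3 1.44, 5.04, 1.17 and 5.39 in that order of lines. Tbx2 was above Tbx4 in every line, and Tbx3 was below Tbx5 in PTC11 and TTF1 and above it in PTC12 and TTF4.

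In TTF4 the median fraction of the 10 genes was 0.473, that of the paralogues 0.288, of the limb bud genes 0.109 and of the mesenchymal factors 0.12. A fraction under 0.2 in all 4 lines was found at 2 of the 10 genes, 6 of 16 paralogues, 27 of 42 limb bud genes and 14 of 23 mesenchymal factors. It was found at 5 of 12 pluripotency genes, 3 of 15 fibroblast and feeder genes and 1 of 12 proximal tubule genes. At 5 of the 10 genes the table start, unlike most in the table, is not that of the principal transcript, and the part of this in the order of the lists was not tested.

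**Figure D5:**
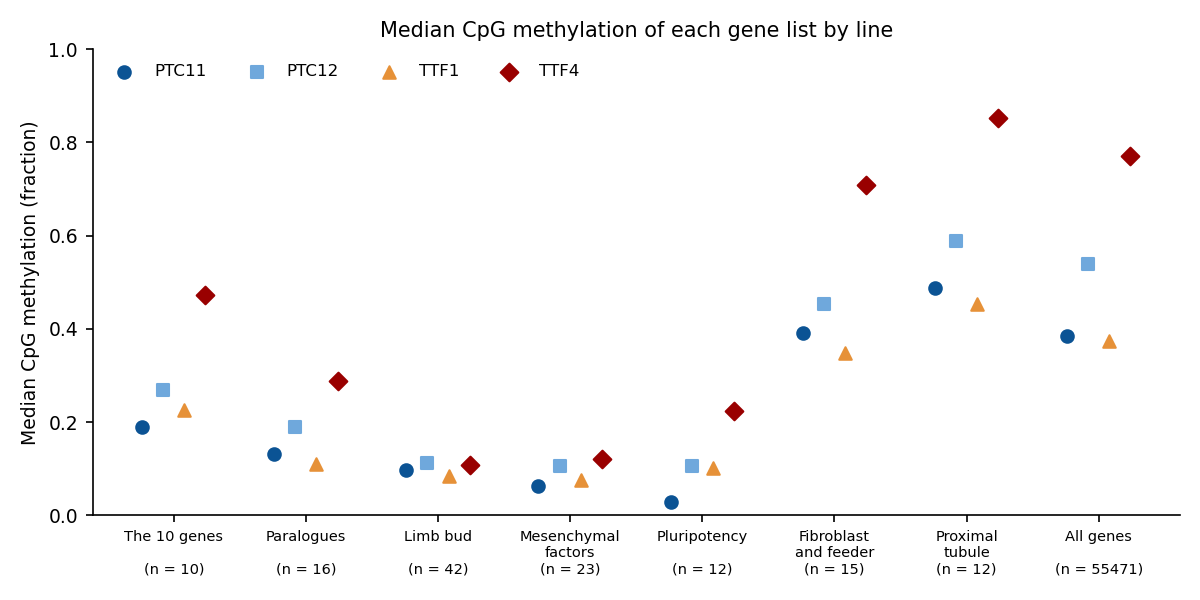
Median CpG methylation (y axis, fraction) of each gene list in each of the 4 lines, with the number of genes of the list in the table under its name. The median of the 10 genes is 0.189 in PTC11 and 0.473 in TTF4, while the limb bud list stays between 0.0849 and 0.113 in all 4 lines.

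The extremes of the limb bud and mesenchymal lists show the range within which the 10 genes fall. In methylation the lowest means were 0.00148 at Sall3 and 0.0093 at Ebf3, below Twist1, and the highest were 0.713 at Cyp26b1, which degrades retinoic acid, and 0.677 at Runx1, above Prrx2. In H3K4me3, among genes with a value in all 4 lines, Bmp4 and Ebf2 had the lowest means at 3.03 and 3.13 RPKM and Fgfr2 and Bmpr1a the highest at 6.23 and 6.13, with Tbx15 at 3.45 and Twist1 at 3.92 nearer the low end. In H3K36me3, again among genes with a value in all 4 lines, the means ran from 1.90 at Bmp4 and 2.07 at Grem1 to 4.78 at Foxc1 and 5.10 at Foxc2, which take in all 10 genes.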

How the data were processed

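The authors deposited RPKM values per gene and library for the histone marks and the fraction of methylated CpGs per gene and line. Per the methods, ChIP-seq reads were aligned to mm10 with Bowtie2 2.1.0, peaks were called against input with MACS2 2.0.10, reads were counted per peak with bedtools 2.17.0, and input was subtracted and peaks were averaged around the start. Per the file headers, H3K36me3 was averaged over the gene body instead. Nanopore reads were aligned with minimap2 2.17-r941, and fractions were averaged over 300 bp windows moved by 30 bp within 1000 bp of the start.

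All 10 genes were named and described, matched by symbol. The genes, the lists and the tests were chosen with earlier results of these data known. Genes valued in every line were tested across each whole table with limma 3.58.1 in R 4.3.3 (variance trend, Benjamini-Hochberg, adjusted p under 0.05) on log2(RPKM + 1) or on the fraction minus the mean of its line, a step also tested on simulated data. The lists were paralogues (Drgx under its RefSeq symbol Prrxl1), limb bud, mesenchymal, pluripotency, fibroblast and feeder, and proximal tubule genes. Of limb bud and mesenchymal genes the 2 highest and 2 lowest means per assay were named. Starts and CpGs were read from GENCODE vM21 and the GRCm38 reference, and genes starting within 5000 bp were looked up. The alternatives changed the pseudocount, trend, normalization, low-value filter, empty entries, centring, scale, sex chromosomes, threshold, replicate block and each line in turn. H3K27me3 was not tested, since none of the 10 genes had a value.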

Additional observations from a re-analysis of the deposited data

How the results depend on the processing

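No gene of the 10 that was tested was called under any alternative that kept all 4 lines. In H3K4me3 those fits tested 2 of the 10 genes, or 10 with empty entries set to 0, and in the other assays all 10. The lowest adjusted p from limma in them was 0.55 in H3K36me3 and 0.921 in methylation, both with the replicate block. Calls were rare over all genes too, at 0.481%, 0.112% and 0.00395% in the main fits of H3K4me3, H3K36me3 and methylation. The number of genes called over the whole table changed with the setting. In H3K4me3 it was 66, with 102 under a pseudocount of 0.1, 0 without a variance trend, under quantile normalization, with a mean of at least 1 RPKM or with empty entries set to 0, and 78 to 138 without a line in turn. In H3K36me3 it was 19, with 44 under a pseudocount of 0.1, 0 under the same 4 alternatives and 1 to 53 without a line. In methylation it was 2, with 0 without centring, on logit2 values or under quantile normalization, 1 without a variance trend, 9 without chromosomes X and Y, and 0 without PTC12 to 1003 without TTF1. With unadjusted p under 0.05, those fits with 0 calls had 3 to 2438 genes. The labels share no line number between origins, and a replicate block pairing PTC11 with TTF1 and PTC12 with TTF4 called 34, 167 and 24 genes in the 3 assays.

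Signs of uncalled differences turned with single lines. Without a line in turn the H3K4me3 difference at Twist1 ran from -0.187 to 0.424. The H3K36me3 differences ran from -0.584 to 0.179 at Prrx1, -0.886 to 0.833 at Prrx2, -0.793 to 0.677 at Twist1, -0.493 to 0.624 at Twist2, -0.661 to 0.383 at Tbx15, -1.06 to 0.0789 at Pitx1, -1.03 to 0.444 at Tbx4, -0.607 to 0.73 at Tbx5, -0.891 to 0.458 at En1 and -0.772 to 0.645 at Meox2. The methylation differences ran from -0.358 to 0.0931 at Prrx1, -0.116 to 0.0292 at Prrx2, -0.242 to 0.0517 at Twist1, -0.0506 to 0.0338 at Twist2, -0.121 to 0.1 at Pitx1, -0.0682 to 0.23 at Tbx4, -0.183 to 9.46e-04 at Tbx5 and -0.0149 to 0.366 at Meox2, while Tbx15 and En1 kept their signs. Under quantile normalization the H3K36me3 differences became 0.0894 at Prrx2, 0.00573 at Tbx15 and 0.126 at Meox2, and the methylation difference at Pitx1 became 0.00575. Without centring the methylation differences became 0.0437 at Prrx2, 0.0787 at Twist2 and 0.0768 at Pitx1. The cause of these turns was not tested.

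These further readings were chosen after seeing the data. Under quantile normalization both TTF lines exceeded both PTC lines in H3K36me3 at 2 genes (Tbx5, Twist2) and were below them at 1 (Pitx1), orders found at 16.3% and 13.7% of all genes, and below in methylation at 3 (En1, Prrx2, Tbx5), found at 17.1%. In fractions as deposited both lay above at 2 genes (Tbx15, Pitx1) and below at 0, against 20.5% and 3.36% of all genes. With a limit of 0.1 in place of 0.2, 3 genes in PTC11 and 2 in PTC12, against 3 in TTF1 and 2 in TTF4 counted as unmethylated.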
